A study of Mus musculus with 4 samples.

Results

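Eosinophils and basophils are rare granulocytes that mark type 2 immunity, and 10 genes of these cells were followed in RNA from leukocytes of the mouse dura mater. The genes were Siglecf, Prg2, Epx, Ear1, Ear2, Ear6, Il5ra, Mcpt8, Csf2rb, and Alox15. They were chosen by name as genes of these lineages, with earlier results of these data known. They are 10 of the 55401 genes in the tables, and all 10 were among the 19806 genes that passed the filter on low counts. The samples came from wild-type male C57BL/6J mice given an injection of 2 μl of an adeno-associated virus (AAV) into the cisterna magna at 4 wk of age. AAV-mVEGF-C encodes full-length mouse VEGF-C, the growth factor of lymphatic vessels, and AAV-CTRL encodes a soluble piece of the VEGF-C receptor VEGFR-3 that lacks the part that binds VEGF-C. Each group had 2 libraries of CD45+ (leukocyte) cells sorted from pooled dura. The methods give 10 to 12 mice for each AAV-treated group and do not state how many went into each library. The libraries are called control pools 1 and 2 (AAV-CTRL 1 and AAV-CTRL 2 in the plots) and VEGF-C pools 1 and 2 (AAV-mVEGF-C). Hence n counts libraries and not mice, and no antibody in the sort set eosinophils or basophils apart from other leukocytes.

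Eosinophils and basophils both arise from marrow progenitors. Eosinophils depend on IL-5, whose receptor pairs an IL-5-specific chain, encoded by Il5ra, with the common β chain encoded by Csf2rb, which the receptors for IL-3 and GM-CSF also use. Eosinophil granules store cationic proteins, among them major basic protein (Prg2), eosinophil peroxidase (Epx), and the eosinophil-associated ribonucleases (Ear genes), whose mRNAs are made mainly while the cells mature in the marrow. Siglecf encodes a sialic acid-binding receptor used to identify mouse eosinophils, and Alox15 encodes a lipoxygenase found in eosinophils and in some macrophages. Basophils respond to IL-3, carry the high-affinity IgE receptor, and express the serine protease encoded by Mcpt8. Mast cells of connective tissue share the IgE receptor but carry other proteases of the same locus.

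The 4 libraries held 32520709 to 46409700 reads assigned to genes. Control pool 1 was the deepest but had the fewest genes with a read, 20993 against 29230 to 37535 in the others. The pan-leukocyte gene Ptprc, which encodes CD45, lay at 191 to 215 TPM (reads scaled by transcript length and to the same sum in each library) in all 4 libraries, and Coro1a, Cd52, and Laptm5, other genes of leukocytes, at 258 to 491 TPM. Of the lists used to look for other cells, the early granulocyte and mature neutrophil genes had the highest sums, and the resident macrophage genes summed to 732 to 1454 TPM. The 10 non-leukocyte genes (fibroblast, endothelial, and bone genes) summed to 106 and 164 TPM in control pools 1 and 2 and to 56.2 and 76.8 TPM in VEGF-C pools 1 and 2. The bearing of these cells on the values below was not tested.

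Coordinates of the genes are those of GRCm38 with the GENCODE M21 annotation. Ear1 (chr14:43818765-43875517, minus strand), Ear2 (chr14:44102654-44103534, plus strand), and Ear6 (chr14:51853699-51854643, plus strand) belong to a ribonuclease family with many copies and pseudogenes on chromosome 14, where Mcpt8 (chr14:56082166-56085273, minus strand) also lies, inside the chymase gene cluster. Epx (chr11:87864000-87875536, minus strand) lies in 1 cluster of peroxidase genes with Lpo and Mpo, the gene for the myeloperoxidase of neutrophils, and Csf2rb (chr15:78325752-78353847, plus strand) lies beside its paralog Csf2rb2. Prg2 (chr2:84980461-84983632, plus strand) lies beside Prg3, which encodes a second form of major basic protein. Siglecf (chr7:43351341-43359531, plus strand), Il5ra (chr6:106710357-106749037, minus strand), and Alox15 (chr11:70344152-70352031, minus strand) have no such near copy among the members.

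The coding sequences of Ear1 and Ear2 were 95.1% identical, and they were 87.3% and 87.6% identical to Ear6, so the start of each is shown to display how little separates them. The first 100 coding bases follow, 5′ to 3′, from the GENCODE M21 transcripts on GRCm38, and capitals mark the bases that differ from Ear1.
Ear1 (chr14:43819310-43819409, minus strand): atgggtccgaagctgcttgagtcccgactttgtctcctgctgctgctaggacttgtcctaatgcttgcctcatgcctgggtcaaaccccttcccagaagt
Ear2 (chr14:44102887-44102986, plus strand): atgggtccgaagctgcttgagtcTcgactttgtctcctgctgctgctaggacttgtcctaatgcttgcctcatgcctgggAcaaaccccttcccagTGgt
Ear6 (chr14:51853998-51854097, plus strand): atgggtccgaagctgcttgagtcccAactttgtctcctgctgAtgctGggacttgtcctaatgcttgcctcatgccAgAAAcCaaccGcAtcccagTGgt
Ear2 differed from Ear1 at 4 of these 100 positions and Ear6 at 12. No window of 100 bases, the length of 1 read, was shared exactly between Ear1 and Ear2 over their annotated transcripts. Ear1 shared 147 of its 614 windows (23.9%) with other genes, mainly the overlapping pseudogene Ear-ps9, and Ear2 shared 86 of 620 (13.9%), all with Ear10. Csf2rb shared 334 of 4665 windows (7.16%) with Csf2rb2, and the other 7 members, Ear6 included, shared none. Reads from shared windows could have been divided among copies when the counts were made, and the values of Ear1, Ear2, and Csf2rb are uncertain to that extent.

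Compared per length, as the mean TPM over the 4 libraries, Prg2 was highest (123 TPM), followed by Ear2 (85.8), Ear1 (69.2), Csf2rb (62.6), Ear6 (37.6), Alox15 (15.1), Epx (8.98), Siglecf (2.90), Il5ra (0.944), and Mcpt8 (0.938). The ranges of most neighbors in this order overlapped, since the libraries differed, but within each of the 4 libraries Prg2 lay above Ear2 and Ear2 above Ear1. The same held in all 4 libraries for Csf2rb above Ear6, Ear6 above Alox15, Alox15 above Epx, Epx above Siglecf, and Siglecf above Il5ra. Ear1 lay above Csf2rb in 3 of 4 libraries, and Il5ra above Mcpt8 in 2 of 4, so these pairs have no settled order. Epx and Siglecf, and Siglecf and Il5ra, were the only neighbors whose ranges over the 4 libraries did not overlap.

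**Figure D1:**
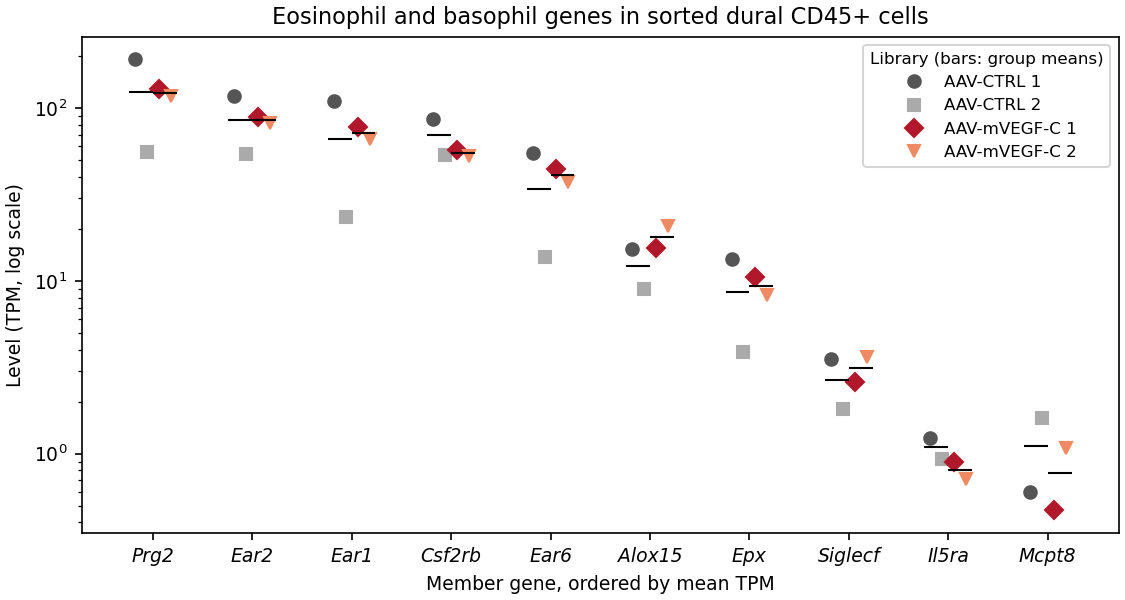
Level of each of the 10 genes in each library, in TPM on a log axis, with 1 point per library, short bars at the group means, and the genes ordered by mean level. The points of Prg2, Epx, Ear1, Ear2, and Ear6 spread widely between the AAV-CTRL libraries, with the AAV-mVEGF-C libraries between them, whereas those of Il5ra and Csf2rb lie close together.

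The comparison asked whether AAV-mVEGF-C shifts the RNA of these genes in dural leukocytes. For the granule protein genes, the control pools differed more from each other than the groups did. The following values are CPM, reads per library total after TMM scaling, a factor for differences in composition between libraries. Prg2, the gene for major basic protein, was at 183 CPM in control pool 1 and 50.7 in control pool 2, and at 135 and 122 CPM in VEGF-C pools 1 and 2. The control pools thus lay on either side of both VEGF-C pools, 3.61-fold apart, whereas the latter were 1.11-fold apart. The group means were 117 ± 93.5 CPM with AAV-CTRL and, for the VEGF-C pools, 129 ± 9.12 CPM (SD, n = 2 each). The log2 fold change of AAV-mVEGF-C over AAV-CTRL was 0.14 (SE 0.53, 95% interval -1.16 to 1.44, edgeR adjusted p = 0.999). The difference was smaller than the spread between the pools, and the interval includes changes of more than a doubling either way. In bulk RNA, fewer cells of a type and less RNA per cell cannot be told apart.

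Epx, whose peroxidase makes hypohalous acids in eosinophil granules, was at 49.7 and 13.5 CPM in control pools 1 and 2 and at 41.1 and 32.9 CPM in VEGF-C pools 1 and 2 (31.6 ± 25.6 and 37.0 ± 5.82, SD, n = 2). It had the same order of libraries as Prg2, with a log2 fold change of 0.23 (SE 0.55, 95% interval -1.12 to 1.57, edgeR adjusted p = 0.999). The ratio of Prg2 to Epx varied less than their levels. There were 3.69 and 3.76 Prg2 reads per Epx read in control pools 1 and 2, and 3.29 and 3.72 in VEGF-C pools 1 and 2. As a share of the reads of both genes, Epx made up 21.3% in control pool 1 (95% Wilson interval 20.6 to 22.1), a share with an interval of 19.4 to 22.8 in control pool 2, 23.3% in VEGF-C pool 1 (22.4 to 24.4), and 21.2% in VEGF-C pool 2 (20.1 to 22.4). The shares in the control pools had overlapping intervals, although the level of each gene differed more than 3-fold between these libraries. The share in VEGF-C pool 1 lay above the interval of control pool 1, beyond counting error. These intervals and those below cover the counting error of reads only, and they are too narrow where reads copied by PCR are not independent molecules.

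Among the ribonuclease genes, Ear1 was at 74.0 and 14.9 CPM in control pools 1 and 2 and at 59.0 and 48.1 CPM in VEGF-C pools 1 and 2. Its control pools were 4.98-fold apart, the most of any member. Ear2 was at 80.8 and 34.9 CPM in the control pools and at 68.6 and 61.2 CPM in the VEGF-C pools. Ear6 was at 36.9 and 8.84 CPM in the control pools and at 34.1 and 27.4 CPM in the VEGF-C pools. In all 3 genes control pool 1 was highest and control pool 2 lowest, so the groups overlapped. The log2 fold changes were 0.27 for Ear1 (SE 0.65), 0.17 for Ear2 (SE 0.38), and 0.42 for Ear6 (SE 0.60), each with an edgeR adjusted p of 0.999.

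The ribonucleases did not keep a fixed ratio to one another. Ear1 made up 47.8% of the reads of Ear1 and Ear2 in control pool 1 (95% Wilson interval 46.6 to 49.0) and 29.9% in control pool 2 (27.8 to 32.1), against 46.2% and 44.0% in VEGF-C pools 1 and 2. Control pool 2 thus had relatively less Ear1 and relatively more Ear2 than the other 3 libraries, beyond the counting error of reads. Ear2 was also on the list of non-classical monocyte genes used below, and which cells gave its reads was not tested. Of the other members of the family, Ear-ps9 had 0, 2.04, 20.3, and 13.2 reads in control pools 1 and 2 and VEGF-C pools 1 and 2, and it shares 132 of the 147 windows named above with Ear1. Ear10 had 1.01 to 3.05 reads per library and Ear14 had 0 to 4. Ear-ps1, Ear-ps2, Ear-ps5, and Ear-ps12 had at most 2 reads in any library, and 5 of the 15 family entries had none. Only 4 of the 15 passed the filter on low counts, the 3 members and Ear-ps9, and 0 passed the test in edgeR at an adjusted or unadjusted p of 0.05.

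Prg3 and the peroxidase paralogs were read in the same way. Prg3 was at 326 and 30 reads in control pools 1 and 2, an 8.36-fold difference in CPM, and at 195 and 120 reads in VEGF-C pools 1 and 2. It thus showed the same order of libraries as Prg2, with a log2 fold change of 0.10. Mpo, of the same gene cluster as Epx, was at 612 and 136 TPM in control pools 1 and 2 and at 306 and 225 TPM in VEGF-C pools 1 and 2, and its coding sequence is 70.5% identical to that of Epx over the aligned bases. Lpo, for the peroxidase of secretions, had 0 to 4 reads per library and was too low to test.

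Siglecf was at 12.3 and 5.82 CPM in control pools 1 and 2 and at 9.45 and 13.3 CPM in VEGF-C pools 1 and 2 (9.04 ± 4.55 and 11.3 ± 2.69, SD, n = 2). The highest value was that of VEGF-C pool 2, unlike for the granule genes, and control pool 2 was again lowest. The log2 fold change was 0.33 (SE 0.41, 95% interval -0.67 to 1.32, edgeR adjusted p = 0.999). Siglecf reads were 6.28% and 10.3% of the reads of Siglecf and Prg2 in control pools 1 and 2, and 6.54% and 9.79% in VEGF-C pools 1 and 2. Siglecf was thus relatively more abundant in pool 2 of both groups, beyond counting error, and its ratio to the granule gene was not fixed. The chemokine receptor Ccr3, through which eosinophils follow eotaxins, was at 4.99 and 3.49 CPM in control pools 1 and 2 and at 7.96 and 5.90 CPM in VEGF-C pools 1 and 2. Both VEGF-C pools lay above both controls, with a log2 fold change of 0.71 (SE 0.36, unadjusted p = 0.0949, edgeR adjusted p = 0.999).

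Alox15 was the single member whose libraries did not overlap between groups. It was at 51.2 and 21.5 CPM in control pools 1 and 2 and at 54.5 and 61.0 CPM in VEGF-C pools 1 and 2. Both VEGF-C pools lay above both controls, but VEGF-C pool 1 was only slightly above control pool 1. The log2 fold change was 0.67 (SE 0.39, 95% interval -0.28 to 1.61), the largest of the 10, and the edgeR test gave an unadjusted p of 0.135 and an adjusted p of 0.999. Of the 19806 tested genes, 16.8% had both VEGF-C pools above both controls and 31.9% had groups apart in either direction, against 1 of 10 members for each. Alox15 differed 2.38-fold between the control pools, and its log2 fold change was 0.18 without control pool 2 and 1.41 without control pool 1, so its size rests on the control used. With 2 pools against 2, an exact two-sided permutation test of a single value cannot go below p = 0.333.

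The arachidonate lipoxygenase list, 16 tested genes that include Alox15 and the genes of leukotriene synthesis, had a median log2 fold change of -0.067, against 0.0034 over all tested genes. None passed the edgeR test, 7 lay above 0, and 9 below. Its genes of highest mean level were Alox5ap, which encodes the 5-lipoxygenase activating protein, at 204, 141, 189, and 174 TPM in control pools 1 and 2 and VEGF-C pools 1 and 2, followed by Lta4h (94.7 to 149 TPM) and Gpx4 (51.6 to 97.3 TPM). The value of Alox15 lay above the median of this list.

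Of the receptor genes, Il5ra differed less between libraries in CPM than the granule genes did. Il5ra, the IL-5 receptor α chain, was at 3.67 and 3.23 CPM in control pools 1 and 2 and at 3.51 and 3.41 CPM in VEGF-C pools 1 and 2 (3.45 ± 0.312 and 3.46 ± 0.0705, SD, n = 2), on 108 to 164 reads. Its log2 fold change was 0.0036 (SE 0.37, 95% interval -0.90 to 0.91, edgeR adjusted p = 0.999). In TPM the groups did not overlap, with the controls at 1.24 and 0.936 and the VEGF-C pools at 0.889 and 0.712, so the scales disagree for this gene. In TPM 2 of 10 members, Il5ra and Alox15, had groups apart, against 37.4% of all tested genes. Il5ra reads were 1.97% of the reads of Il5ra and Prg2 in control pool 1, 5.98% in control pool 2, 2.53% in VEGF-C pool 1, and 2.71% in VEGF-C pool 2. The receptor gene thus did not follow the granule genes when these were lowest, in control pool 2.

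Csf2rb was at 319 and 214 CPM in control pools 1 and 2 and at 278 and 277 CPM in VEGF-C pools 1 and 2, with a log2 fold change of 0.056 (SE 0.22, 95% interval -0.48 to 0.60, edgeR adjusted p = 0.999). Csf2rb is expressed by most myeloid cells, and its level is no measure of eosinophils alone. Its paralog Csf2rb2, the β chain that in mice serves IL-3 alone, was at 69.3 and 74.6 CPM in control pools 1 and 2 and at 74.4 and 76.0 CPM in VEGF-C pools 1 and 2. Csf2rb2 made up 17.8% of the reads of both paralogs in control pool 1 and 25.8% in control pool 2, against 21.1% and 21.6% in VEGF-C pools 1 and 2. In CPM, Csf2rb, like the granule genes, was highest in control pool 1 and lowest in control pool 2, whereas Csf2rb2 was lowest in control pool 1. In TPM, Csf2rb was at 86.2 and 53.9 in control pools 1 and 2 and 57.6 and 52.6 in VEGF-C pools 1 and 2. There VEGF-C pool 2 was lowest, and the group mean was lower with AAV-mVEGF-C (55.1 against 70.0 TPM), so the scales disagree for this gene too.

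None of the 26 tested genes of the IL-5, IL-3, and GM-CSF pathway list passed the test, at an adjusted or an unadjusted p of 0.05. Their median log2 fold change was 0.038, with 17 above 0 and 9 below. The genes of highest level were Pim1, a kinase gene induced by these cytokines (109 to 162 TPM), Ptpn6, which encodes a phosphatase that restrains them (115 to 163 TPM), and Lyn, a Src-family kinase gene (96.4 to 126 TPM). Of the ligands, Il5 was at 3.42 and 3.72 TPM in control pools 1 and 2 and at 2.01 and 2.86 TPM in VEGF-C pools 1 and 2, with both VEGF-C pools lower and a log2 fold change of -0.40 (unadjusted p = 0.267, edgeR adjusted p = 0.999). Il3 had 0 to 3 reads per library and was not tested.

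Mcpt8 had the fewest reads of the 10 and went the other way between the control pools. It had 24 and 47 reads in control pools 1 and 2 and 19 and 38 reads in VEGF-C pools 1 and 2, or 0.537, 1.37, 0.486, and 1.20 CPM. Without TMM scaling the values were 0.517 CPM in control pool 1 (95% Wilson interval 0.348 to 0.770) and 1.41 in control pool 2 (1.06 to 1.87), and 0.499 (0.320 to 0.780) and 1.17 (0.851 to 1.60) in VEGF-C pools 1 and 2. Pool 2 was the higher in both groups, with intervals that did not overlap, though these treat each read as independent and leave out copying by PCR. The log2 fold change was -0.17 (SE 0.92, 95% interval -2.42 to 2.07, edgeR adjusted p = 0.999), and the interval is too wide to bound a change of this gene. Prss34, which encodes another basophil protease, had 75 and 131 reads in control pools 1 and 2 and 74 and 87 reads in VEGF-C pools 1 and 2, and was likewise higher in control pool 2 than in control pool 1.

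**Figure D2:**
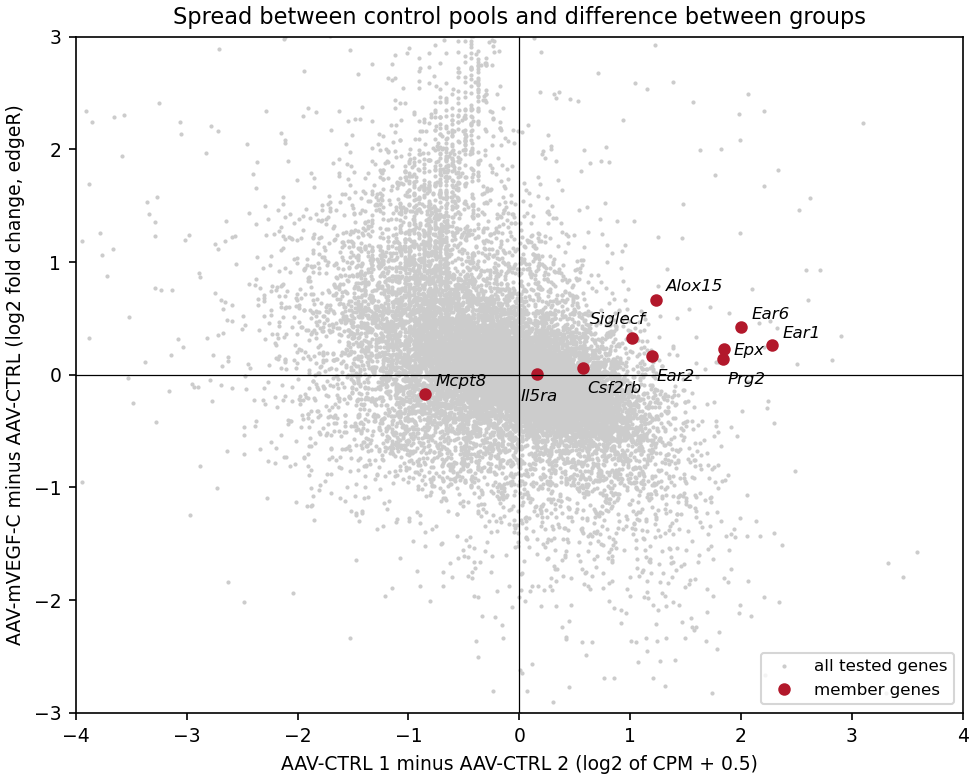
For each tested gene, the log2 difference between AAV-CTRL 1 and AAV-CTRL 2 (horizontal axis) against the log2 fold change of AAV-mVEGF-C over AAV-CTRL (vertical axis), with the 10 members named and the other tested genes in gray. The granule genes, Siglecf, and Alox15 lie to the right, where AAV-CTRL 1 is the higher control, between 0.14 (Prg2) and 0.67 (Alox15) on the vertical axis, and Mcpt8 lies to the left (173 genes fall outside the axes).

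Across the 10 members, 0 passed an adjusted p of 0.05 and 0 an unadjusted p of 0.05 in edgeR, and DESeq2 also gave 0 and 0. In edgeR, 1 member, Alox15, passed an unadjusted p of 0.05 with no filter on low counts (unadjusted p = 0.00196) and with a block of crossed replicate numbers (0.0213), with an adjusted p of 0.210 and 0.999. Of all genes in these settings, 1327 of 40674 passed the unadjusted p with no filter and 637 of 19806 with the crossed block. In the edgeR fit with the filter and no block, 0.00% of all tested genes passed the adjusted p and 2.64% (523 genes) the unadjusted p. In DESeq2, 0.397% passed the adjusted and 3.85% the unadjusted p. The log2 fold change was above 0 in 9 members and below 0 in 1, with a median of 0.20 against 0.0034 over all tested genes. This tally depends on the scale, since the group means were higher with AAV-mVEGF-C in 9 members in CPM but in 5 in TPM and lower in the other 5, against 50.3% and 36.2% of all tested genes that were higher in CPM and in TPM. The spread within the control group was of another size. In 7 of the 10 members control pool 1 exceeded control pool 2 by more than 2-fold in CPM + 0.5, as did 3.57% of all tested genes and 1.72% of the 9337 tested genes with a mean of at least 10 CPM. The median control pool 1 minus control pool 2 difference over the members was 1.22 (log2), against -0.077 over all tested genes, whereas that of VEGF-C pool 1 minus VEGF-C pool 2 was 0.090. In CPM, the libraries of 7 members fell in the order control pool 1, VEGF-C pool 1, VEGF-C pool 2, control pool 2. The same order held in 5.86% of tested genes. The 7 were Prg2, Epx, Ear1, Ear2, Ear6, Il5ra, and Csf2rb, but Il5ra and Csf2rb did not keep this order in TPM. This order was looked for after the values had been seen.

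The outcome depended on which control pool was left out. Without control pool 1, 6 of 10 members passed the edgeR adjusted p, all higher with AAV-mVEGF-C, where the lone control is assumed to vary like the VEGF-C pools. Of the 22284 genes tested in that setting, 1.85% passed (412 genes), and 0.781% passed and were higher. At an unadjusted p of 0.05 there were 7 members, against 7.75% of all genes, and 0 members turned sign, against 30.9%. The 6 members past the adjusted p were Ear1 (log2 fold change 1.83), Ear6 (1.78), Epx (1.44), Alox15 (1.41), Prg2 (1.33), and Ear2 (0.88). Without control pool 2, 0 members passed the edgeR adjusted p, against 9.19% of 22401 tested genes (6.14% higher with AAV-mVEGF-C), and 3 of 10 an unadjusted p of 0.05, near the 28.9% of all genes that did. In that setting 9 of 10 members turned sign, against 15.4% of tested genes, and Prg2 stood at -0.50, Ear1 at -0.46, and Epx at -0.42. With a lone control most genes have groups that do not overlap, 67.0% without control pool 1 (10 of 10 members) and 82.2% without control pool 2 (8 of 10 members). With a lone VEGF-C pool the shares were 53.6% without VEGF-C pool 1 and 60.7% without VEGF-C pool 2, against 2 of 10 members each. No direction of the granule genes can thus be read from these pools.

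**Figure D3:**
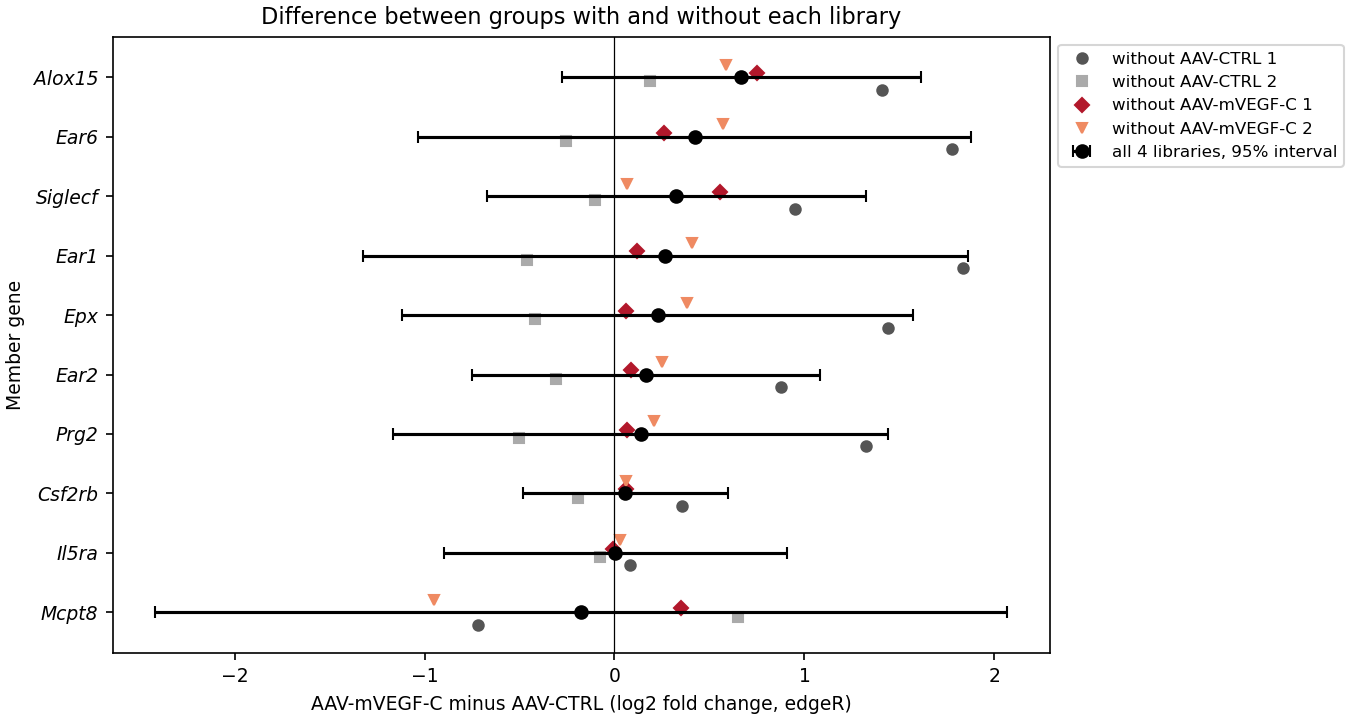
Log2 fold change of AAV-mVEGF-C over AAV-CTRL for each member, from edgeR, as a point with its 95% interval for all 4 libraries, and the values with each library left out as separate symbols. All 10 intervals span 0, and the values without AAV-CTRL 1 and those without AAV-CTRL 2 fall on opposite sides of 0 for 9 of the 10 genes.

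Genes of other granulocytes also lay higher in control pool 1 than in control pool 2. Of 21 tested early granulocyte (marrow) genes, 11 were more than 2-fold higher in control pool 1 than in control pool 2, against 3.57% of the whole table tested, and 0 were more than 2-fold lower. Mpo was 4.91-fold higher there and the neutrophil elastase gene Elane 4.05-fold, with Elane at 453 and 117 TPM in control pools 1 and 2 and at 227 and 182 TPM in VEGF-C pools 1 and 2. The azurophil granule protease genes Prtn3 and Ctsg were 4.74-fold and 5.70-fold higher in control pool 1. The summed level of the list was 16198 and 7663 TPM in control pools 1 and 2, and 8070 and 8764 TPM in VEGF-C pools 1 and 2, most of it from Ngp, Ltf, and Lcn2, which encode proteins of neutrophil secondary granules. Their part in the eosinophil values was not tested. Between treatment groups the list had a median log2 fold change of -0.25, with 4 genes above 0 and 17 below, of which the globin genes Hba-a1 (-1.79) and Hbb-bs (-1.81) passed an unadjusted p of 0.05 and none an adjusted p.

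Of the 12 mature neutrophil genes, 2 were more than 2-fold higher in control pool 1 than in control pool 2, and the list summed to 22099 and 10786 TPM in control pools 1 and 2 and to 13382 and 15639 TPM in VEGF-C pools 1 and 2. S100a9 and S100a8, for the calprotectin subunits, and Retnlg were highest. Csf3r, the G-CSF receptor gene, had a log2 fold change of 0.50 (unadjusted p = 0.0388, edgeR adjusted p = 0.999). By contrast, resident macrophage genes, led by C1qb, C1qa, and Csf1r, had a median control pool 1 minus control pool 2 difference of -0.66 (log2) over 15 tested genes, of which F13a1 was higher in control pool 1 (0.24 on the log2 scale), and none had a fold change above 0 between groups (15 below, median -0.22, 0 passing the test). The eosinophil granule and surface list as a whole had 10 of 26 tested genes more than 2-fold higher in control pool 1 and a median fold change of 0.12 between groups, with 0 passing. Its genes of highest level, S100a10 (157 to 224 TPM) and Itgam (99.4 to 133 TPM) beside Prg2, are expressed by many leukocytes.

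**Figure D4:**
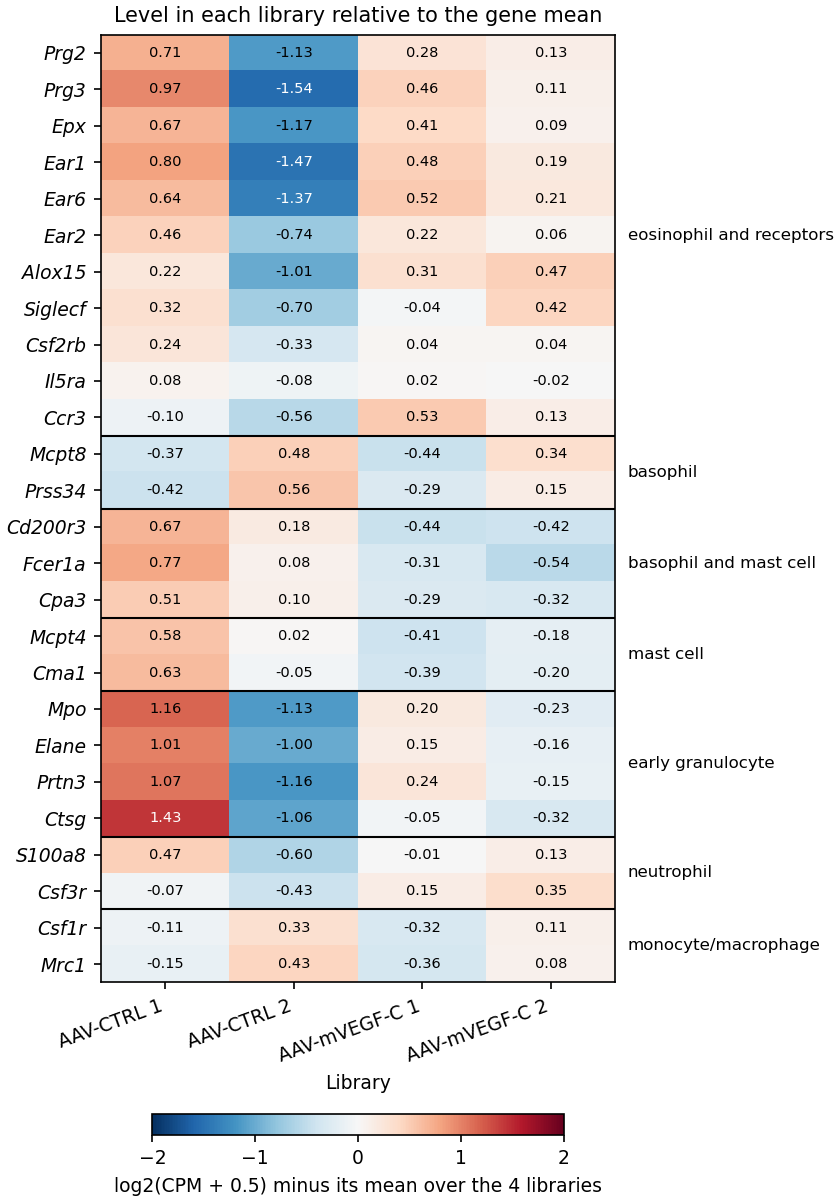
Level of the members and of related basophil, mast cell, granulocyte, and macrophage genes in each library, relative to the mean of each gene over the 4 libraries (difference in log2(CPM + 0.5), printed in each cell and shown by color). The eosinophil granule genes and Mpo, Elane, Prtn3, and Ctsg share a high AAV-CTRL 1 column and a low AAV-CTRL 2 column. The mast cell genes shown, Mcpt4 and Cma1, are lower in both AAV-mVEGF-C columns than in either AAV-CTRL column.

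Several genes that basophils share with mast cells lay lower in both VEGF-C pools, without passing the adjusted test. Of 20 tested basophil genes, 8 lay above 0 and 12 below, with a median log2 fold change of -0.19. At an unadjusted p of 0.05 there were 3 genes, all lower with AAV-mVEGF-C, against 2.64% of all tested genes in either direction, and 0 passed an adjusted p. The 3 genes were Cd200r3, a receptor gene (log2 fold change -0.93, SE 0.29, unadjusted p = 0.0174), Fcer1a, the IgE receptor α chain (-0.93, SE 0.32, unadjusted p = 0.0272), and Cpa3, mast cell carboxypeptidase (-0.63, SE 0.19, unadjusted p = 0.0160), each with an edgeR adjusted p of 0.999. Fcer1a was at 15.3 and 10.3 TPM in control pools 1 and 2 and at 6.45 and 5.66 TPM in VEGF-C pools 1 and 2. Cpa3 was at 229 and 191 TPM in the control pools and at 122 and 125 TPM in the VEGF-C pools. Other genes of the list lay above 0 without passing, among them the cytokine genes Il4 (0.65) and Il6 (0.50) and Hdc, for the histamine-forming enzyme that mast cells share (0.15). Ms4a2, the IgE receptor β chain, had a log2 fold change of -0.56 (SE 0.28, unadjusted p = 0.0912). Fcer1g, for the γ chain that the IgE receptor shares with other Fc receptors and that most myeloid cells express, had the highest level of the list (159 to 221 TPM) and a log2 fold change of -0.066. Mcpt8 and Prss34, which mast cells do not share, did not have both VEGF-C pools below both controls.

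The mast cell list, 15 tested genes, had 13 below 0 and 2 above, with a median log2 fold change of -0.56. At an unadjusted p of 0.05 there were 5 genes, all lower, and 0 passed an adjusted p. Among them, the chymase and tryptase genes Mcpt4 (log2 fold change -0.62), Cma1 (-0.63), and Tpsb2 (-0.47) had both VEGF-C pools below both controls. The groups overlapped for the tryptase gene Tpsab1 (0.12) and for Kit (-0.079), a receptor gene of mast cells. In 9 of the 15 genes both VEGF-C pools were below both controls, against 15.2% of all tested genes. The summed level of the list was 1582 and 1193 TPM in control pools 1 and 2 and 868 and 930 TPM in VEGF-C pools 1 and 2. Of 10 non-leukocyte genes 8 lay below 0, with the endothelial gene Pecam1 at -0.24 and the fibroblast genes Col1a1 at -0.97, Col1a2 at -0.92, and Dcn at -0.92 on the log2 scale (unadjusted p = 0.0142, 0.0267, and 0.0250). Whether these cells bear on the basophil values was not tested. In the chymase locus of chromosome 14, all 8 tested proteases, Mcpt8 among them, had a fold change below 0, with a median of -0.62. Of all tested genes, 50.3% had the higher group mean CPM with AAV-mVEGF-C. The set repeats genes of the mast cell list, Mcpt4 and Cma1 among them, and Ctsg. The value of Mcpt8 (-0.17) turned sign without control pool 2 (0.65) and without VEGF-C pool 1 (0.35).

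Transcription factors of the lineages and signals that recruit the cells showed no call. Of 16 factors tested, 11 lay above 0 and 5 below, with a median log2 fold change of 0.050, and 0 passed an unadjusted p of 0.05 in edgeR. Gata1, the factor that eosinophils require, was at -0.33 (but at 1.13 ± 0.0799 TPM in the controls and 1.32 ± 0.694 in the VEGF-C pools), Gata2 at -0.26, and Cebpe, a factor of late granulocyte maturation, at 0.049. Spi1, Id2, and Irf8 were the most abundant, at 97.2 to 111, 85.6 to 117, and 59.3 to 94.8 TPM. Of 16 tested genes among the recruiting and type 2 signals, 8 lay above 0 and 8 below, and 0 passed an unadjusted p of 0.05. Ccl5 (86.0 to 127 TPM), the IL-33 receptor gene Il1rl1 (57.6 to 75.5 TPM), and Il4ra (42.7 to 51.2 TPM) were highest. The eotaxin gene Ccl11 had at most 3 reads in any library. Among 9 Siglec family genes, 3 lay above 0 and 6 below, 0 passed, and Cd33, Siglech, and Cd22 were the most abundant. Of 12 non-classical monocyte genes, 8 lay above 0 and 4 below, led in level by Nr4a1, Cebpb, and Csf1r, and Cebpb passed an unadjusted p of 0.05 (log2 fold change 0.82). Of the 2 heme peroxidase genes tested, Epx lay above 0 and Mpo below.

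For 3 members, the genes with the nearest profile over the 4 libraries were looked up among tested genes within 4-fold of their level. For Epx the nearest of 8505 genes were Fkbp5, a chaperone gene induced by glucocorticoids (Euclidean distance 0.128 in centered log2(CPM + 1)), Prg2 (0.141), and Ear6 (0.249). For Siglecf they were Gprc5a, Phospho1, and Cstdc4 (0.167, 0.187, and 0.210, of 8448), and for Mcpt8 they were Tal2, Hyal2, and Zfp637 (0.0477, 0.0535, and 0.0633, of 7371). With 4 libraries, many genes share any given order, and these distances are a description.

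Promoter sequence was at hand for 7 of the 10 members (RefSeq, GRCm38.p6, 250 bases before to 50 after the start), and not for Prg2, Csf2rb, and Alox15. The GATA motifs AGATAA and TGATAA and the C/EBP core TTGCNNAA were searched on both strands, since GATA and C/EBP factors direct these lineages. AGATAA occurred in 1 of 7 members (Il5ra) and in 11.2% of 32851 promoters, TGATAA in 1 (Siglecf) and in 9.05%, and TTGCNNAA in 2 (Ear1 and Ear2) and in 10.8%. The windows around the matches of Ear1, Ear2, and Il5ra are shown, as the Ear pair carries 1 shared stretch, with the match in capitals.
Ear1 (chr14:43819698-43819757, minus strand): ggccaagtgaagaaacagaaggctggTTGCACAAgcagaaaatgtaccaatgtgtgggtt
Ear2 (chr14:44102538-44102597, plus strand): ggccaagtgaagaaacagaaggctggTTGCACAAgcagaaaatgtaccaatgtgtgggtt
Il5ra (chr6:106749080-106749137, minus strand): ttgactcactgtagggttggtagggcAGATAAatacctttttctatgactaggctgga
The 60 bases printed for Ear1 and Ear2 were identical, and their matches lie 92 and 90 bases before the start. A match describes letters in a window and not a bound site.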

How the data were processed

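RNA of sorted dural CD45+ cells was measured in 2 AAV-CTRL and 2 AAV-mVEGF-C libraries (SMARTer stranded pico kit, paired reads of 100 bases). The authors deposited 2 tables, one of estimated counts, which carry fractions of reads (8.18% of values were not whole), and one of TPM values for the same genes. The submitters' processing notes name FastQC, Trimmomatic, DRAGEN, Picard, and mm10. How DRAGEN divides reads among near-identical genes can change Ear1, Ear2, and Csf2rb. Groups were taken from the sample labels.

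Counts were rounded and tested with edgeR 4.0.16 in R 4.3.3 (quasi-likelihood, TMM scaling, filterByExpr, all 4 libraries, no covariate, common dispersion 0.173), with p-values adjusted by Benjamini-Hochberg over 19806 genes. An SE was taken as the absolute log2 fold change over the square root of F. Totals of 32520709 to 46409700 reads make 3 reads, the floor of detection, worth 0.0646 to 0.0922 CPM. Alternatives were DESeq2 1.42.0, limma 3.58.1 (voom, and log2(TPM + 1) or log2(TPM + 0.1) of genes with at least 1 TPM in 2 libraries), other scalings and filters, summed paralogs, a replicate block, and each library left out. The procedures were tested on simulated data. The members and lists were chosen with earlier results of these data known. Genes named in the text are the members, their paralogs, lineage genes, the 3 genes of highest mean TPM of each list and those with an unadjusted p under 0.05, and the nearest profiles. Prtn3, Il3, Ccl11, F13a1, Il4, Il6, Tpsab1, and Kit are outside this rule, picked with their values in view. Of 55401 identifiers, 54349 matched GENCODE M21.

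The labels number experiments 1 and 2 in each group, but the column names carry other numbers. Deviations of same-numbered libraries from their group means correlated at -0.134 across genes, so the numbers were not taken as pairs.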

Additional observations from a re-analysis of the deposited data

How the results depend on the processing

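No member passed an adjusted p of 0.05 with all 4 libraries, and this count stayed 0 under the 11 alternatives that keep all libraries, the crossed block among them, though Il5ra fell under the filter of both log2(TPM) fits (9 members tested) and the summed fit gave the 3 Ear genes 1 value (8 tested). With a library left out it ran from 0 to 6, with 6 without AAV-CTRL 1. The count of all genes passing was 0 in edgeR and became 77 with DESeq2, 268 with no filter, 23 with log2(TPM + 0.1), and 11 with the replicate block. A pairing of crossed numbers, added after the data were seen, gave 54. Leaving out a library gave 2 to 2058 genes: 412 without AAV-CTRL 1, 2058 without AAV-CTRL 2, 2 without AAV-mVEGF-C 1, and 65 without AAV-mVEGF-C 2. The cause was not tested. The replicate block changed no call of a member but moved log2 fold changes, from 0.14 to 0.41 for Prg2, 0.23 to 0.50 for Epx, 0.27 to 0.67 for Ear1, 0.17 to 0.29 for Ear2, and 0.42 to 0.74 for Ear6, and voom gave 0.40 for Prg2 and 0.63 for Ear1. Over the alternatives that keep all libraries the values ran from 0.57 to 0.80 for Alox15, 0.19 to 0.40 for Siglecf, and -0.42 to -0.13 for Mcpt8. Members whose groups did not overlap numbered 1 in CPM, 2 in TPM (37.4% of all tested genes), and 2 to 10 with a library left out. A lone control leaves most genes without overlap, 67.0% and 82.2% of tested genes without AAV-CTRL 1 and 2 (53.6% and 60.7% without AAV-mVEGF-C 1 and 2).

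Signs turned for Il5ra with DESeq2 (-6.8e-05), voom (-0.00075), and no filter (-0.016), for Csf2rb with log2(TPM + 1) (-0.30) and log2(TPM + 0.1) (-0.31), and without AAV-mVEGF-C 1 for Il5ra (-0.0089) and Mcpt8 (0.35). With each library left out, log2 fold changes ran from -0.10 to 0.95 for Siglecf, -0.50 to 1.33 for Prg2, -0.42 to 1.44 for Epx, -0.46 to 1.83 for Ear1, -0.31 to 0.88 for Ear2, -0.26 to 1.78 for Ear6, -0.077 to 0.082 for Il5ra, -0.95 to 0.65 for Mcpt8, -0.19 to 0.36 for Csf2rb, and 0.18 to 1.41 for Alox15. Apart from Mcpt8, the lowest was without AAV-CTRL 2 and the highest without AAV-CTRL 1. With 2 pools a group, the intervals of all members but Il5ra and Csf2rb include a doubling. The low reads of Mcpt8 limit it further.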
